A study of Mus musculus with 6 samples.

Results

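The 10 genes described are transcription factors that fix dendritic and myeloid cell fate: Zbtb46, Batf3, Id2, Spi1, Bcl6, Zeb2, Runx3, Nfil3, Cebpa and Cebpb. They were picked by gene symbol from a deposited table of 22899 mouse genes, of which 18071 held values, and all 10 were present with a value in every library. RNA had been sequenced from immature dendritic cells (imDCs), grown for 7 days from the marrow of male C57BL/6 mice aged 7 weeks with GM-CSF at 20 ng/ml plus IL-4 at 10 ng/ml, then selected for CD11c, the integrin subunit used to purify dendritic cells. In the FSS group (3 libraries) the cells were placed in a cone-plate device under fluid shear stress of 10 dyn/cm2 for 3 h, and in the static group (3 libraries) they were cultured without load. Genotype, cytokines and CD11c selection were the same in both groups. Replicate numbers 1 to 3 occur in both groups. Nothing in the labels says whether the replicates were separate cultures or animals. The p-values below therefore rest on spread between libraries, of the gene and of genes of like level, and that spread may be technical.

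A dendritic cell is built in steps. The ETS factor PU.1 (gene Spi1) and the C/EBP factors open the myeloid programme in progenitors, and a second layer then divides the descendants: Zbtb46 marks classical dendritic cells apart from macrophages, Id2, Batf3, Nfil3 and Bcl6 are needed for the cross-presenting cDC1 subset, and Zeb2 favours plasmacytoid cells, the cDC2 subset and monocytes. Several of these proteins act by opposing a partner: Id2 binds E proteins and keeps them off DNA, and Bcl6 and Zeb2 are repressors. Marrow cultures with GM-CSF give monocyte-derived dendritic cells mixed with macrophage-like cells, and only few cells of the cDC1 type.

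Expression is given in FPKM, fragments per kilobase of transcript relative to all mapped fragments. The unit was inferred from the values, because the table names none, depth per library is unknown and no counting error can be given. Summed FPKM ran from 413898 to 439110 in FSS libraries and from 432027 to 470596 in static libraries. The defining genes of the selected cells were present: Itgax, which encodes CD11c, stood at 397 to 502 FPKM in FSS and 502 to 599 FPKM in static libraries, and Cd74, the class II invariant chain, at 4178 to 5319 FPKM in FSS and 4509 to 5283 FPKM in static libraries. Of 6 cDC1 markers 2 averaged 1 FPKM or more, and their sums, mostly from Wdfy4, were 14.8 to 24.9 FPKM in FSS and 21.0 to 39.1 FPKM in static libraries. The defining cDC1 markers were near 0, with Xcr1 at 0.08 to 0.09 FPKM in FSS and 0.04 to 0.05 FPKM in static libraries, and Flt3, the receptor on which classical dendritic cells depend, was below 1 FPKM in every library. All 9 macrophage markers averaged 1 FPKM or more, with summed levels of 352 to 571 FPKM in FSS and 370 to 547 FPKM in static libraries, and 8 of 10 neutrophil markers did so, with sums of 273 to 437 FPKM in FSS and 298 to 525 FPKM in static libraries. For 7 cDC2 and monocyte-derived markers the sums were 466 to 1083 FPKM in FSS and 629 to 1261 FPKM in static libraries. Single markers differed between the groups where these sums overlapped. Ccr2, a monocyte chemokine receptor, averaged 24.1 FPKM in FSS and 68.3 FPKM in static cells and passed the test used below (limma adjusted p = 0.0469). Mertk, a macrophage receptor, averaged 43.0 FPKM in FSS and 18.0 FPKM in static cells (adjusted p = 0.164, and 0.00166 with the replicate number as a block). Wdfy4 averaged 18.4 FPKM in FSS and 28.4 FPKM in static cells (adjusted p = 0.401, and 0.005 with the block). Of 5 plasmacytoid cell markers 1, Tcf4, averaged 1 FPKM or more, and the sums were 13.0 to 26.2 FPKM in FSS and 14.1 to 29.3 FPKM in static libraries. Mast cell and basophil markers summed to 5.05 to 15.4 FPKM in FSS and 3.94 to 13.0 FPKM in static libraries. B cell, T and NK cell and erythroid markers summed to less than 10 FPKM in every library. No marker listed was at 0 in all 6 libraries, and the part of other cells in the results below was not tested. In bulk RNA, fewer cells of a type and less RNA per cell cannot be told apart.

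After 3 h of shear stress none of the 10 lineage factors passed the test across all genes (limma on log2(FPKM + 1), Benjamini-Hochberg adjusted p under 0.05), and none had an unadjusted p under 0.05. The background in the same test was 1.72% of 10899 genes, 0.853% higher and 0.862% lower. An unadjusted p under 0.05 was found in 1969 of the 10899 genes. The differences of the 10 factors, FSS minus static, lay between -0.49 (Zbtb46) and 0.27 (Runx3) on the log2 scale, with 6 below and 4 above 0. Their median was -0.08, beside -0.12 for all genes tested. With the replicate number as a block, which removes what the libraries of a number share, Zbtb46 and Batf3 fell and none rose, 2 of 10 beside a background of 25.1% lower and 7.73% higher (32.9% in either direction). A share of 2 in 10 is near that background. When the libraries were also scaled by their median ratio, Zbtb46 was again called lower, Batf3 was no longer called, and Runx3, Cebpb and Nfil3 were called higher, 1 lower and 3 higher beside backgrounds of 16.3% and 19.6% (35.9% in either direction). Scaling without the block called none of the 10, beside 2.05% of all genes (1.42% higher, 0.635% lower). Runx3 had the one unadjusted p under 0.05 (limma, 0.019), beside 1823 of the 10871 genes tested after scaling.

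**Figure D1:**
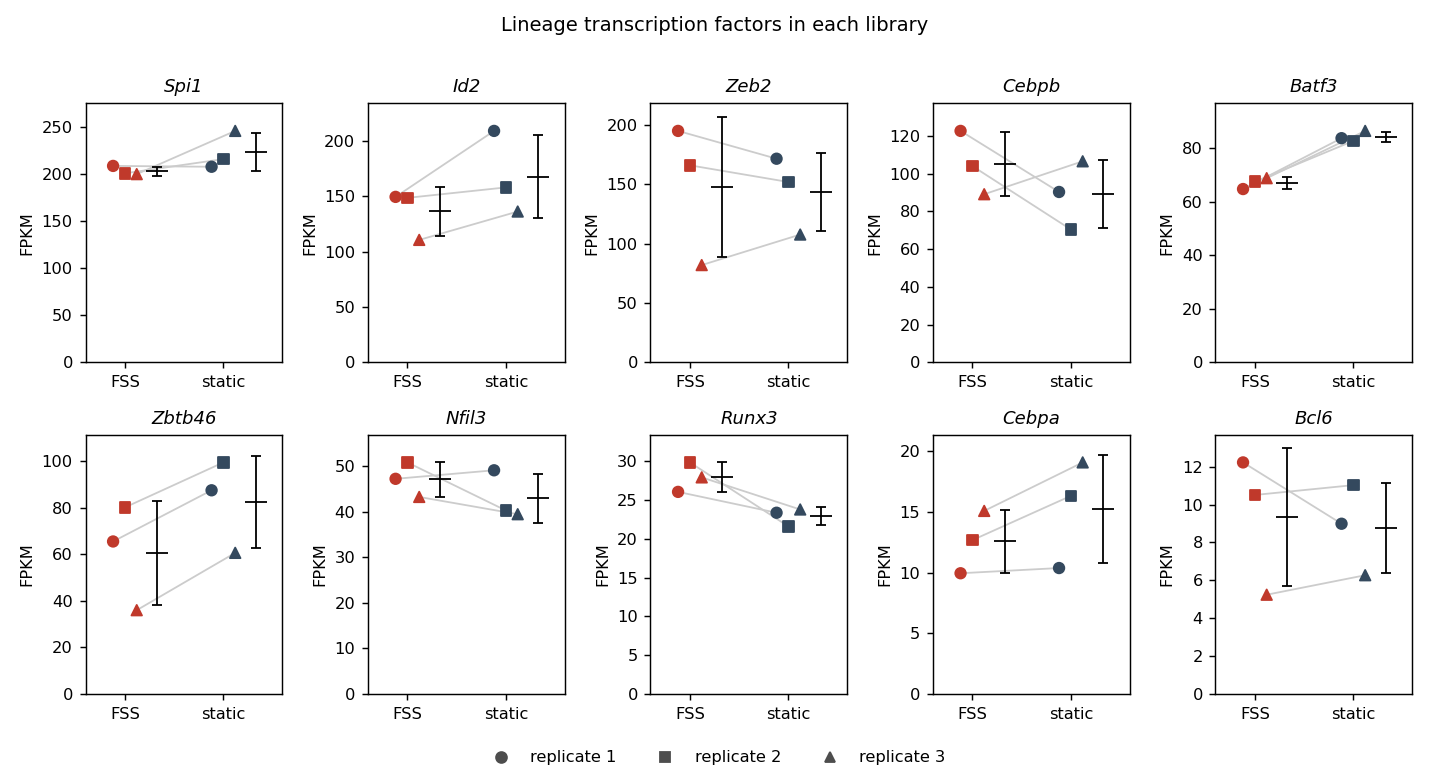
FPKM (vertical axes, from 0) of the 10 lineage factors in each FSS and static library; symbols give the replicate number, grey lines join libraries of the same number, and black bars give the group mean with SD (n = 3). The groups are separate for Batf3 (FSS below static) and Runx3 (FSS above static) and overlap in the other 8.

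**Figure D2:**
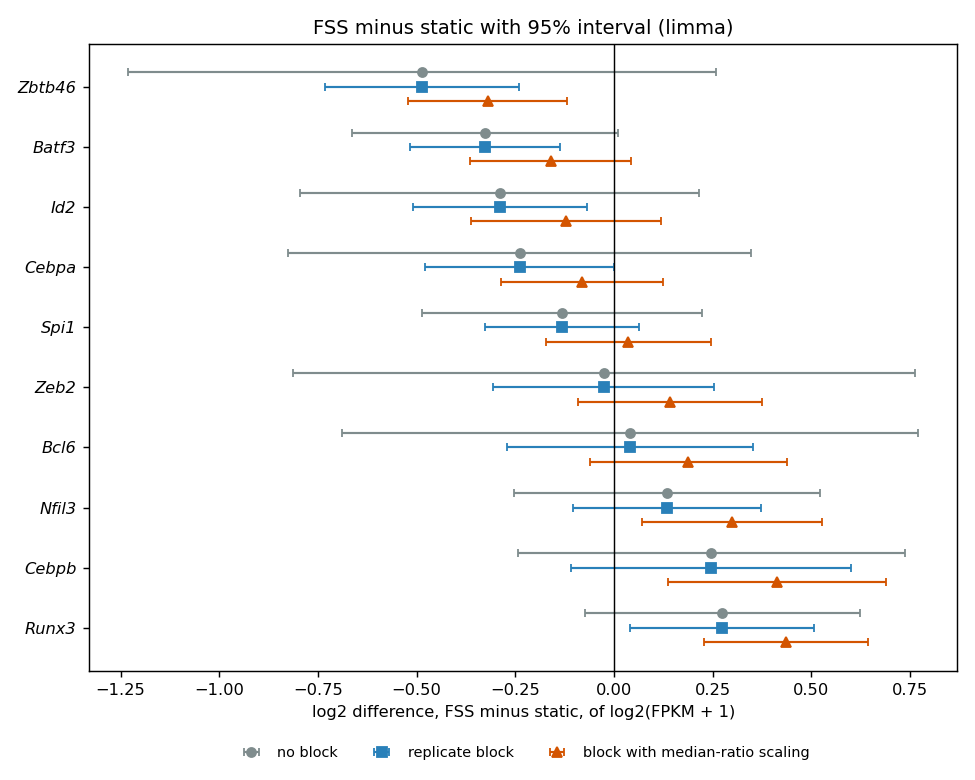
Log2 difference, FSS minus static, of each factor with its 95% interval from limma, without a block, with the replicate block, and with the block after median-ratio scaling. Without the block all 10 intervals include 0; with the block those of Zbtb46 and Batf3, the 2 called, lie below it, and the intervals of Id2, Cebpa and Runx3 also leave out 0 although their adjusted p-values missed 0.05.

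Zbtb46, a BTB zinc finger factor that holds the classical dendritic cell state, had the largest difference of the set as deposited. After median-ratio scaling its difference (-0.32) was smaller in size than those of Runx3 (0.44) and Cebpb (0.41). It stood at 65.5, 80.1 and 35.95 FPKM in FSS libraries 1 to 3, against 87.4, 99.4 and 60.6 FPKM in static libraries 1 to 3. Each FSS library lay below the static library of its number, yet the groups overlapped, because FSS libraries 1 and 2 exceeded static library 3. The means were 60.5 ± 22.5 FPKM in FSS and 82.5 ± 19.9 FPKM in static cells (SD, n = 3 each), a ratio of 0.734. The log2 difference was -0.49 ± 0.32 (SE) without the block (limma adjusted p = 0.493) and -0.49 ± 0.11 with it (adjusted p = 0.0121). Without the block, it ran from -0.72 without FSS replicate 2 to -0.16 without FSS replicate 3. Scaling with the block left it at -0.32 ± 0.09 (adjusted p = 0.022), so Zbtb46 was the factor called under both versions of the blocked fit. In the RefSeq table its span overlaps those of Lime1, Zgpat and Abhd16b, which also have values; use of strand in counting is not given in the sources used here, and reads of overlapping genes may have been divided with error.

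Batf3, a small basic leucine zipper factor that pairs with JUN proteins and with IRF4 or IRF8 on DNA, varied least. FSS libraries 1 to 3 gave 64.8, 67.6 and 68.9 FPKM, and static libraries 1 to 3 gave 83.8, 82.8 and 86.5 FPKM. All FSS libraries lay below all static libraries. The groups did not overlap, FSS below static, in 20.4% of all genes tested, and in 25.5% in either direction. Its SD within groups, 0.04 on the log2 scale, was among the smallest of all genes (percentile 0.239), against a median of 0.25. The means were 67.1 ± 2.07 FPKM in FSS and 84.4 ± 1.93 FPKM in static cells (SD, n = 3 each), a ratio of 0.795. The log2 difference was -0.33 ± 0.15 (SE; limma adjusted p = 0.293), and -0.33 ± 0.08 with the block (adjusted p = 0.0201). limma draws the error of a gene towards that of genes of like level, so this SE does not rest on the spread of Batf3 alone. After scaling with the block the difference was -0.16 ± 0.09 (adjusted p = 0.194); in pair 3 it was -0.33 as deposited and -0.02 after scaling.

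The sequences around the starts of Zbtb46 and Batf3, the factors called lower with the block, and of Runx3, whose groups lay apart in the other direction, are given from 250 bases before to 50 bases after the annotated start (RefSeq, GRCm38.p6), 5′ to 3′ on the gene's strand. Capitals mark matches to the motifs described further on. The bases just before the annotated Zbtb46 start, ttctcttcttctccccacag, have the form of a splice acceptor. That start may therefore be the edge of an inner exon rather than a promoter, which was not tested. They lie at chr2:181424339-181424638, minus strand (Zbtb46), chr1:191098164-191098463, plus strand (Batf3), and chr4:135120395-135120694, plus strand and chr4:135152295-135152594, plus strand (the distal and proximal Runx3 starts).
Zbtb46: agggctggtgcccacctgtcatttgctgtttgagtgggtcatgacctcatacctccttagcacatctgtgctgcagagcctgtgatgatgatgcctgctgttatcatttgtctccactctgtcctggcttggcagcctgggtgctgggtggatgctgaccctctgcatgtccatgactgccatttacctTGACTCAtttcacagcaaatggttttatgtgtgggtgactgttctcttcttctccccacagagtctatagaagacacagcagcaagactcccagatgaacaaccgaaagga
Batf3: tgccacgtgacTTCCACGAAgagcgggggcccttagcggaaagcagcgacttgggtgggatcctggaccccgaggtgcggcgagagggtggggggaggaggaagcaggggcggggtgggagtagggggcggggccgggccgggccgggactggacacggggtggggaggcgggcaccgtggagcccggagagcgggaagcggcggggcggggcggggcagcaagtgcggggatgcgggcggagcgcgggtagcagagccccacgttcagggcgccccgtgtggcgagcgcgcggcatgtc
Runx3 distal: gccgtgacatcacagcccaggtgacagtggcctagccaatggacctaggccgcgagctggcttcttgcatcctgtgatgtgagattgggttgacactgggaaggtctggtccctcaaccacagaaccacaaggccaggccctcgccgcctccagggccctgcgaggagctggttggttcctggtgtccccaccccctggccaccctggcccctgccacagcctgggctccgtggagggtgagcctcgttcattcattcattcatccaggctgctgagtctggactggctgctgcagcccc
Runx3 proximal: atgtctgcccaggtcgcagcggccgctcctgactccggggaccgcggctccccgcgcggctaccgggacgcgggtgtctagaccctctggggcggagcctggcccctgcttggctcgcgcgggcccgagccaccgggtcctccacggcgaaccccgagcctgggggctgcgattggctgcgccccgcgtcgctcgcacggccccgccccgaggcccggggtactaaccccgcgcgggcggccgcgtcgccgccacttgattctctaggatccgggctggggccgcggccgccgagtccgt

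Id2, Nfil3 and Bcl6 complete the group tied to cDC1 development. Id2, an inhibitor that carries a helix-loop-helix but no DNA-binding part, gave 149, 148.5 and 111 FPKM in FSS libraries 1 to 3 and 209, 158 and 136 FPKM in static libraries 1 to 3. It was lower in each pair, by 0.48, 0.09 and 0.30 on the log2 scale, while FSS libraries 1 and 2 exceeded static library 3. The difference of -0.29 ± 0.22 (SE) had an adjusted p of 0.555 without the block and 0.0507 with it, just above the threshold of 0.05. Nfil3, a bZIP repressor that acts upstream of Id2 in innate lymphoid cells, stood at 47.2, 50.8 and 43.2 FPKM in FSS libraries and 49.1, 40.3 and 39.4 FPKM in static libraries. The values of the groups intermingled. Its difference of 0.13 ± 0.17 (SE) had an adjusted p of 0.755, and after scaling with the block 0.30 ± 0.10 (adjusted p = 0.0455). Bcl6, best known as the repressor of germinal centre B cells, was the lowest of the 10 at 12.2, 10.5 and 5.24 FPKM in FSS and 8.99, 11.03 and 6.27 FPKM in static libraries. FSS library 1 was its highest and FSS library 3 its lowest value. The difference of 0.04 ± 0.31 (SE; limma adjusted p = 0.966) has a 95% interval from -0.69 to 0.77, so that changes of that size in either direction could not be told from the spread.

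Zeb2 and Runx3 act on the other branches. Zeb2, a zinc finger repressor that in mouse progenitors restrains Id2, gave 195, 166 and 81.9 FPKM in FSS libraries 1 to 3, against 171, 152 and 108 FPKM in static libraries 1 to 3. It was higher under FSS in pairs 1 and 2 and lower in pair 3. The difference was -0.03 ± 0.34 (SE; limma adjusted p = 0.977), and its sign turned with median-ratio scaling (0.14). The RefSeq table places the noncoding gene Zeb2os over the Zeb2 span, and without strand the reads of the 2 cannot be told apart. Runx3, a RUNT factor that mediates TGF-beta responses in mouse dendritic cells and is needed for Langerhans cells, stood at 26.1, 29.9 and 27.9 FPKM in FSS libraries and 23.4, 21.6 and 23.8 FPKM in static libraries. All FSS libraries lay above all static libraries, which held for 5.1% of all genes tested. The means were 27.9 ± 1.9 FPKM in FSS and 22.9 ± 1.16 FPKM in static cells (SD, n = 3 each), a ratio of 1.22. The log2 difference was 0.27 ± 0.15 (SE; limma adjusted p = 0.397), 0.27 ± 0.10 with the block (adjusted p = 0.0701) and 0.44 ± 0.09 with block and scaling (adjusted p = 0.0066).

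The general myeloid factors were the most and among the least abundant of the set. Spi1, which encodes PU.1, gave 209, 201 and 200 FPKM in FSS libraries 1 to 3 and 208, 216 and 246 FPKM in static libraries 1 to 3. FSS library 1 lay within the static range and the other FSS libraries below it. The difference was -0.13 ± 0.15 (SE; limma adjusted p = 0.736) with a 95% interval from -0.49 to 0.22, and 0.036 after median-ratio scaling, where its sign turned. Cebpa, which commits progenitors to the granulocyte and monocyte path, stood at 9.95, 12.7 and 15.1 FPKM in FSS libraries and 10.4, 16.3 and 19.1 FPKM in static libraries. It was lower in each pair, by 0.06, 0.34 and 0.32 log2, and the groups overlapped (difference -0.24 ± 0.25, SE; limma adjusted p = 0.704, and 0.108 with the block). That difference ran from -0.48 without static replicate 1 to -0.07 without static replicate 3. Cebpb, which takes over in inflammatory myeloid responses, gave 123, 104 and 89.1 FPKM in FSS libraries 1 to 3, against 90.3, 70.4 and 107 FPKM in static libraries 1 to 3. It was higher by 0.44 and 0.56 log2 in pairs 1 and 2 and lower by 0.26 log2 in pair 3. The difference over all libraries was 0.25 ± 0.21 (SE; limma adjusted p = 0.621, and 0.245 with the block), and it ran from 0.09 without static replicate 2 to 0.38 without static replicate 3. It was called higher with block and scaling (0.41 ± 0.12, limma adjusted p = 0.0279). As deposited, it was also called higher in a blocked fit of the libraries numbered 1 and 2 (0.50, limma adjusted p = 0.00284). Among all genes, block with scaling called 19.6% higher, and the blocked fit of numbers 1 and 2 called 1526 genes higher.

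The pairs and the scaling bear on these values together. In the libraries as deposited, the median gene was lower under FSS by 0.08 log2 in pair 1, 0.07 in pair 2 and 0.22 in pair 3. The medians of the 10 factors were -0.02, -0.08 and -0.30, and 5, 6 and 8 of them were below 0. The direction was the same in all 3 pairs for 5 factors, with Zbtb46, Batf3, Id2 and Cebpa lower and Runx3 higher, beside 64.4% of all genes (47.3% lower, 17.1% higher). After median-ratio scaling, which moved the median of all genes from -0.12 to 0.03, 6 factors kept 1 direction in the 3 pairs: Zbtb46 and Batf3 lower, and Runx3, Cebpb, Nfil3 and Bcl6 higher, beside 64.9% of all genes (29.6% lower, 35.3% higher). The factors with 1 direction in all pairs under both scalings were Zbtb46, Batf3 and Runx3. Relative to the median gene, then, the difference of Batf3 in pair 3 was small and that of Runx3 larger, at 0.25, 0.54 and 0.52 log2 in pairs 1 to 3.

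**Figure D3:**
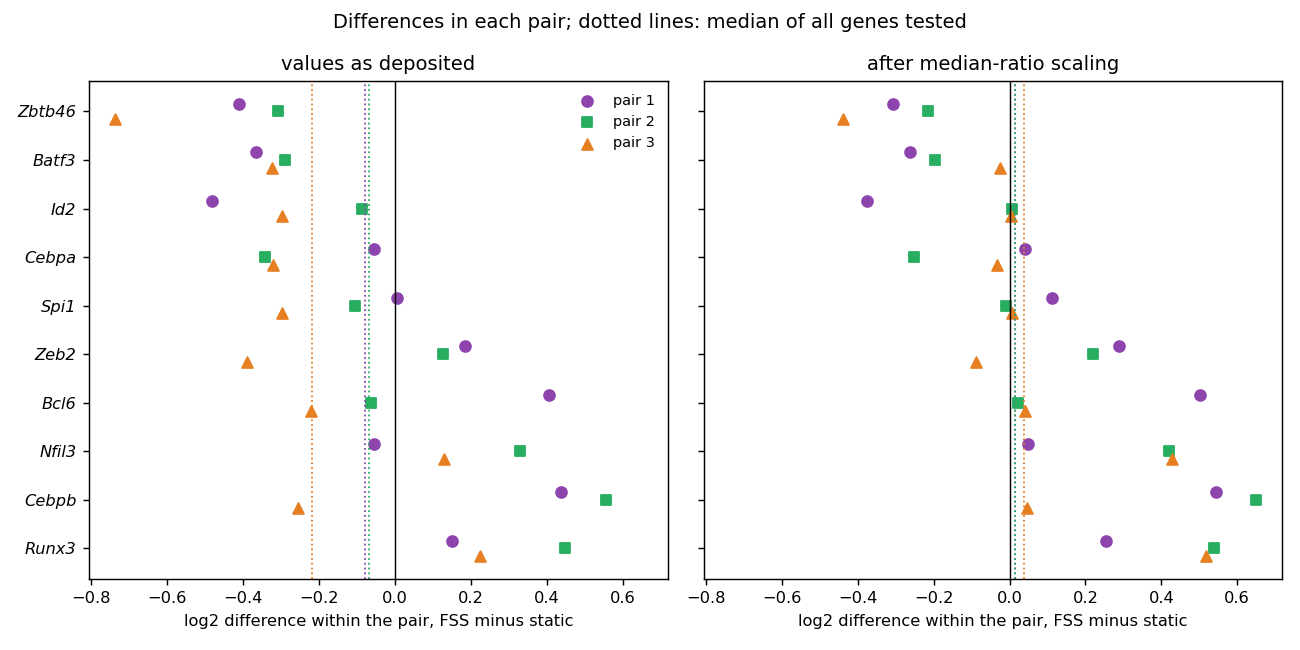
Log2 difference within each pair of libraries of the same replicate number, FSS minus static, for the 10 factors, 1 per line, as deposited on the left and after median-ratio scaling on the right. Dotted lines give the median of all genes tested in each pair, -0.08, -0.07 and -0.22 for pairs 1 to 3 on the left; the pair 3 symbols of most factors lie further left there than after scaling.

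The 10 factors were also compared by replicate number, which separated many genes. In a model that also held the group, 4 of the 10 were lower in the libraries numbered 3 than in numbers 1 and 2 (limma adjusted p under 0.05), beside 29.3% lower and 13.7% higher among all genes (43% in either direction), a share near the background. The same 4, Zeb2, Zbtb46, Bcl6 and Id2, had both libraries of number 3 below the other 4 libraries, beside 29.7% of all genes, and none had both above, beside 16.2%. Zeb2 averaged 94.7 FPKM in the libraries numbered 3 and 171 FPKM in the other 4 (log2 difference -0.85 ± 0.15, SE; adjusted p = 0.00373). Zbtb46 averaged 48.3 and 83.1 FPKM (-0.80 ± 0.14; adjusted p = 0.00382) and Bcl6 5.76 and 10.7 FPKM (-0.79 ± 0.15; adjusted p = 0.00471), number 3 first in both. Id2 differed less, by -0.42 ± 0.13 (adjusted p = 0.0289), and Cebpa was the factor with the largest positive value, 0.46 ± 0.18, which did not pass (adjusted p = 0.0723). Batf3, Runx3, Cebpb and Spi1 differed by 0.04 to 0.09 log2 between the numbers, with adjusted p-values of 0.503 to 0.881. Marker sums moved with the number as well. For replicates 1 to 3 the cDC2 and monocyte-derived markers summed to 466, 698 and 1083 FPKM in FSS and to 629, 905 and 1261 FPKM in static libraries. Mgl2, a C-type lectin, carried most of this rise, at 215, 409 and 836 FPKM in FSS and 317, 557 and 953 FPKM in static libraries. Clec10a rose in the same order. The other markers of that list did not rise steadily, and Sirpa was lowest in number 3 in both groups (124 FPKM in FSS, 155 FPKM in static). The 9 macrophage markers summed to 571, 440 and 352 FPKM in FSS and to 547, 439 and 370 FPKM in static libraries. What the number stands for is not stated, and the part of these markers in the values of the factors was not tested. Without FSS replicate 3, none of the 10 passed this test; the adjusted p-values were then 0.0952 for Zeb2, 0.0986 for Zbtb46, 0.111 for Bcl6 and 0.205 for Id2. The call of Id2 was also lost without FSS replicate 2 (0.0526), static replicate 1 (0.0713) or static replicate 3 (0.142), without a filter (0.0658), and with median-ratio scaling (0.141). Cebpa was called higher in the libraries numbered 3 with that scaling (0.56 log2, adjusted p = 0.0206) and without static replicate 2 (0.58, adjusted p = 0.0135).

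**Figure D4:**
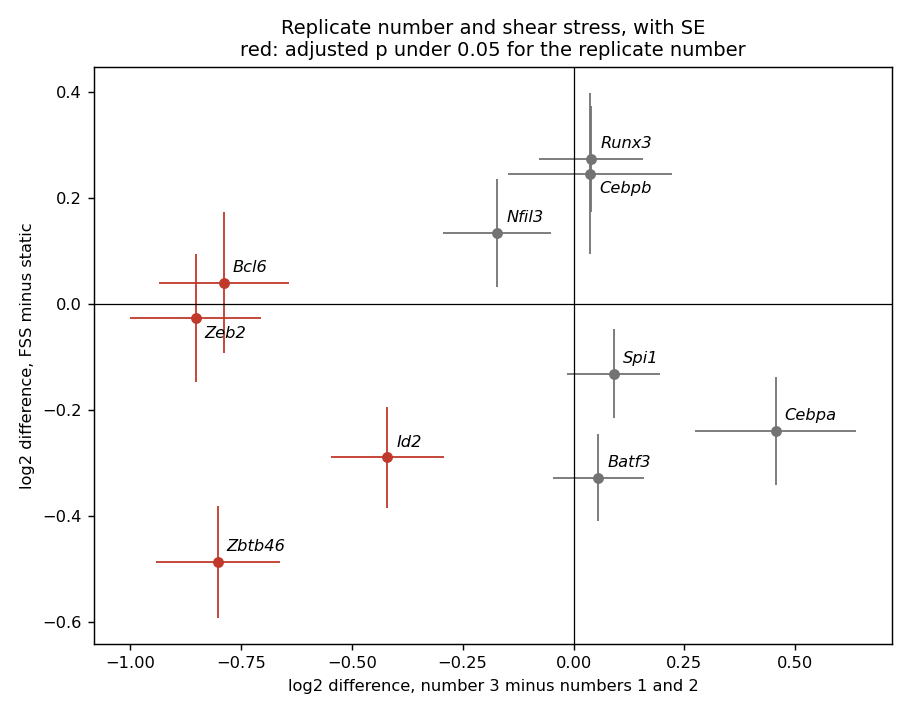
Each of the 10 factors by its log2 difference between the libraries numbered 3 and those numbered 1 and 2 (horizontal) and by its log2 difference FSS minus static with the replicate block (vertical), with SE bars. Red symbols (Zeb2, Zbtb46, Bcl6 and Id2) passed for the replicate number; Batf3 lies near 0 on the horizontal axis and at -0.33 on the vertical one.

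FPKM are per transcript length, so levels can be set side by side. By mean over all 6 libraries the order was Spi1 (213 FPKM), Id2 (152), Zeb2 (145.5), Cebpb (97.2), Batf3 (75.7), Zbtb46 (71.5), Nfil3 (45.0), Runx3 (25.4), Cebpa (13.9) and Bcl6 (9.05). Spi1, at percentile 97.3 of all genes tested, exceeded Id2 in 5 of 6 libraries. Neighbours in this order overlapped in range except Nfil3 over Runx3 and Runx3 over Cebpa, which held in 6 of 6 libraries. Batf3 and Zbtb46 changed places: Batf3 was higher in 1 of 3 FSS and 1 of 3 static libraries. Id2 exceeded Zeb2 in 1 of 3 FSS libraries and in 3 of 3 static libraries, a change of order whose difference was not tested.

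Among relatives of the 10 factors, Batf (0.88 log2), Id1 (-0.74), Cbfb (-0.64), Cebpg (0.62) and Cebpe (-0.56) had larger differences than any of the 10; Cebpg and Cebpe were named after their values were known. Of 18 relatives chosen by family, 15 were tested and none passed without the block, with a median difference of -0.17 log2 beside -0.12 for all genes, and 4 had an unadjusted p under 0.05, as did 1969 of the 10899 genes. With the block 3 of the 15 were called higher and 4 lower, beside 7.73% and 25.1% of all genes. With block and scaling 4 were higher and 2 lower, beside 19.6% and 16.3%. Cbfb, the shared partner that lets RUNX proteins bind DNA firmly, stood at 18.0, 21.1 and 20.4 FPKM in FSS libraries, against 30.7, 32.9 and 31.1 FPKM in static libraries. The groups lay apart, in the direction opposite to Runx3 (difference -0.64 ± 0.15, SE; limma adjusted p = 0.0822, and 0.00293 with the block). Batf, the paralogue that can stand in for Batf3 in mouse dendritic cells, gave 43.7, 41.8 and 26.5 FPKM in FSS libraries and 16.9, 23.1 and 18.7 FPKM in static libraries. All FSS libraries lay above all static ones, opposite to Batf3 (0.88 ± 0.23, SE; limma adjusted p = 0.11, 0.00551 with the block, and 0.0444 with scaling alone). Id1, an Id2 paralogue, was low, at 2.92 ± 1.25 FPKM in FSS and 5.3 ± 0.43 FPKM in static cells (SD, n = 3 each; limma adjusted p = 0.184, and 0.0152 with the block). Cebpg, a C/EBP protein that forms dimers without an activation domain, averaged 13.1 FPKM in FSS and 8.08 FPKM in static cells (limma adjusted p = 0.202, and 0.0101 with the block).

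Among 40 other lineage factors 37 were tested; none rose and 2 fell, Irf4 and Egr2, beside the background of 0.853% higher and 0.862% lower, with a list median of -0.08 log2. Irf4, the IRF partner of BATF proteins on composite sites, gave 88.3, 123 and 107 FPKM in FSS libraries and 431, 326 and 407 FPKM in static libraries. Every FSS value was less than each static value (difference -1.86 ± 0.20, SE; limma adjusted p = 0.0133), far beyond the range of the 10 factors. Irf8, the other partner of Batf3, named after its values were known, gave 37.1 ± 7.02 FPKM in FSS and 42.5 ± 15.6 FPKM in static cells (SD, n = 3 each; limma adjusted p = 0.843). Egr2, a zinc finger factor induced by growth signals and used in macrophage differentiation, gave 29.1, 47.1 and 30.1 FPKM in FSS libraries and 127, 115 and 86.5 FPKM in static libraries (difference -1.62 ± 0.24, SE; limma adjusted p = 0.0302), and its relative Egr1 16.2 ± 3.78 FPKM in FSS and 28.8 ± 4.76 FPKM in static cells (SD, n = 3 each; adjusted p = 0.113, and 0.003 with the block). The call of Irf4 was lost without FSS replicate 1 (adjusted p = 0.0675), FSS replicate 2 (0.0794) or static replicate 1 (0.0735). That of Egr2 was lost without FSS replicate 1 (0.145), FSS replicate 2 (0.114), static replicate 1 (0.162), static replicate 2 (0.128) or static replicate 3 (0.0522). With the block 1 of the 37 was higher and 9 lower, beside 7.73% and 25.1% of all genes, and with block and scaling 5 were higher and 5 lower, beside 19.6% and 16.3%. These shares are at or below the background.

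Genes known as targets of these factors, or as markers of the cells they specify, went both ways. Of 25 listed, 20 were tested and none passed without the block, with a median of 0.0023 log2. An unadjusted p under 0.05 was found for 3 of them, beside 1969 of the 10899 genes. With the block 5 were called higher and 5 lower, beside 7.73% and 25.1% of all genes. With block and scaling 8 were higher and 3 lower, beside 19.6% and 16.3%. Ccnd2, a cyclin gene that BCL6 represses in B cells, averaged 88.5 ± 25.8 FPKM in FSS and 144 ± 24.7 FPKM in static cells. Cdkn1a, the cell cycle inhibitor p21 and another BCL6 target in B cells, averaged 262 ± 76.1 and 435 ± 108 FPKM, FSS first. Their adjusted p-values were 0.172 and 0.193 (limma), and 0.00224 and 0.00357 with the block (SD, n = 3 each). Cd69, an activation marker, averaged 39.3 ± 11.4 FPKM in FSS and 23.6 ± 7.58 FPKM in static cells (SD, n = 3 each; limma adjusted p = 0.243, and 0.00669 with the block). The 4 colony-stimulating factor receptor genes of the list were named after their values were known. Csf1r differed by 0.14, Csf2ra by -0.21, Csf2rb by -0.29 and Csf3r by 0.56 log2, and none passed without the block (limma adjusted p = 0.748, 0.516, 0.377 and 0.66). With the block Csf3r was called higher (adjusted p = 0.0103, and 0.00106 with block and scaling) and Csf2rb lower (0.024, and 0.397 with block and scaling). The 5 genes not tested were Flt3 and the cDC1 markers Xcr1, Clec9a, Cadm1 and Itgae, which missed the filter of 1 FPKM in 3 libraries.

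**Figure D5:**
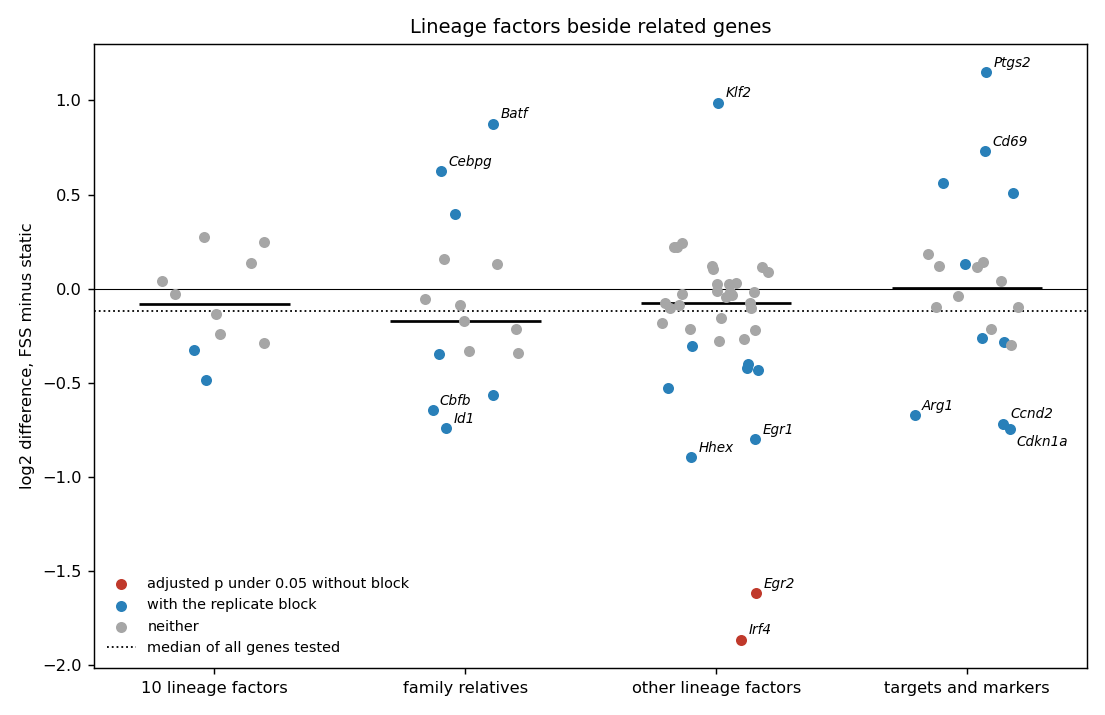
Log2 difference, FSS minus static, of the 10 lineage factors, their tested family relatives (15), other lineage factors (37) and targets and markers (20). Black bars are list medians and the dotted line the median of all genes tested (-0.12). Irf4 and Egr2 (red) passed without the block, and blue symbols passed with the replicate block only.

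Promoter letters were searched for sites of some of these factors and of stress-responsive factors. No letters for the binding of RUNX3, ZEB2 or ZBTB46 were searched, so nothing is known here of such sites. Of the 10 genes, 9 were in the set of RefSeq promoters used, with 14 starts. RefSeq lists the gene Spi1, but that set held no promoter for it. GC content ran from 49.3% (a Zeb2 start) to 81.7% (Nfil3), with a median of 63.0%, beside a median of 52.7% over 32851 promoters. On both strands, no start of the 9 genes held the PU.1 letters GAGGAAGT (3.2% of all promoters did), the C/EBP letters TTGCGCAA (0.183%), the NFIL3 letters TTACGTAA (0.119%) or the cyclic AMP response element TGACGTCA (1.79%). None held a heat shock element, searched as 3 alternating units (GAA, its reverse complement, GAA), each 2 bases apart (0.603%). The AP-1 letters TGANTCA (7.81%) were in 2 of 14 starts. They lay at -61 to -55 of Zbtb46 and at -189 to -183 and -132 to -126 of a Zeb2 start. The Zbtb46 match may lie in an intron, given the splice acceptor form of the letters before that start. The BCL6 letters TTCCNNGAA (4.81%) were in Batf3 at -239 to -231 and, as TTCCTGGAA and TTCCGGGAA, at -168 to -160 and -88 to -80 of a Bcl6 start. The E-box CAGCTG (16.3%) was in Id2 at -196 to -191 and in Nfil3 at -223 to -218. No motif overlapped another in these starts. In the sequences printed above the capitals are thus the AP-1 letters of Zbtb46 and the BCL6 letters of Batf3. Both Runx3 starts had no match to the letters searched.

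For the 3 factors with the smallest unadjusted p, Batf3 (0.056), Runx3 (0.107) and Zbtb46 (0.17), the genes most like them over the 6 libraries were ranked by Pearson r on the log2 scale, as a description. Batf3 was most like Srsf2, a splicing factor (r = 0.997), Lzic (0.997) and Wdr77 (0.997). Srsf2 averaged 48.6 FPKM in FSS and 91.6 FPKM in static cells and was itself called lower (limma adjusted p = 0.0469), as was Wdr77 (0.0423). Runx3 was most like Lif, a cytokine of the IL-6 family (r = 0.984), Egln1, a prolyl hydroxylase of the hypoxia pathway (0.974), and Zkscan5 (0.969), none of which passed (adjusted p = 0.0871, 0.141 and 0.183). Zbtb46 was most like Oxsr1, a kinase of the osmotic and oxidative stress response (r = 0.999), Zfp146 (0.998) and Tpp2 (0.998), and none of these passed (adjusted p = 0.568, 0.557 and 0.567). With 6 libraries that share group and replicate number, many genes reach a high r: 807 genes were above 0.9 with Batf3, 42 with Runx3 and 1260 with Zbtb46. Among the factors themselves, Bcl6 and Zeb2 were most alike (r = 0.946), and the most negative values were those of Nfil3 with Cebpa (r = -0.85) and Batf3 with Runx3 (r = -0.82).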

How the data were processed

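RNA of 6 libraries was analysed, 3 FSS and 3 static, grouped and numbered by the submitters' titles. Per the submitters' processing notes, HISAT and Bowtie2 were used. Their versions, the quantifier, the genome build, the annotation and any use of strand were not given in the sources used here. The authors deposited 1 value per gene and library, the same in the series table and the 6 sample files, headed expression without a unit. The deposited values were taken as FPKM, since library totals differ and value times transcript length summed to 0.552 to 0.609 times 1e9 with median and 1.14 to 1.28 times 1e9 with longest transcripts (GENCODE). Low values showed no clear steps of whole reads, so depth is unknown. In 4828 of 22899 genes all values were blank. Of the gene IDs, 21633 were found in RefSeq's table for GRCm38.p6, used for names, overlaps and promoters.

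A gene was tested if 3 or more libraries reached 1 FPKM (10899 genes), with limma 3.58.1 in R 4.3.3 on log2(FPKM + 1), FSS minus static, with variances that follow the mean, two-sided, Benjamini-Hochberg adjusted over all genes tested, at 0.05. The design assumed this unit. Low genes change less on this scale than in FPKM. Ratios are of mean FPKM. The model was tested on simulated data with known fold changes. Same-numbered libraries of both groups were given the same deviations there, so the simulation cannot check the pairing. Replicate numbers were treated as pairs: deviations from the group means correlated at 0.79, 0.66 and 0.87 between same-numbered libraries, against -0.78 to 0.28 between others. Deviations cancel out within a group, so positive values for the same number push the others towards negative ones. Numbers 1 and 2 were set apart less clearly than number 3: FSS 1 with static 2 gave 0.28, and FSS 2 with static 1 gave 0.22. The pairing was thus read from these data, not from the labels, and results of the blocked fit are given where they change a call. Other alternatives were a pseudocount of 0.1, other filters, a threshold of 0.01, scaled libraries, no variance trend, and libraries left out.

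The 10 factors and the gene lists were chosen with earlier results of these data known. Beside the factors, the text names, for the lists of relatives, other lineage factors and targets, the genes that passed and up to 3 with the smallest p, plus for 3 factors the 3 genes of highest Pearson r, leaving out predicted genes; other genes, the cell type markers given with values among them, were named after their values were known.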

Additional observations from a re-analysis of the deposited data

How the results depend on the processing

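None of the 10 factors was called without a block in any setting run, including each library left out in turn (0 higher and 0 lower in all 6). The replicate block called 0 higher and 2 lower, and block with median-ratio scaling 3 and 1. The blocked fit of the libraries numbered 1 and 2 called 2 higher (Cebpb and Runx3) and 2 lower (Zbtb46 and Batf3). Among all genes that fit called 1526 higher and 2608 lower. Over all genes, 187 calls became 21 without a filter, 118 with 1 FPKM required in all 6 libraries, 5 at a threshold of 0.01, 3581 with the block, 113 with equal totals, 3901 with block and median-ratio scaling, 727 with numbers 1 and 2 alone and 4134 with these and the block, and 3 (without static replicate 1) to 415 (without FSS replicate 3) with 1 library left out. The other lineage factors gave 2 calls, but 1 without a filter, 0 at 0.01, 10 with the block, 10 with block and scaling, 8 in the blocked fit of numbers 1 and 2, and 0 to 2 with 1 library left out. The relatives gave 0 calls, but 7 with the block, 1 with scaling, 6 with block and scaling, 2 with numbers 1 and 2 alone, 6 with these and the block, and 0 to 1 with 1 library left out. The targets gave 0, but 10 with the block, 11 with block and scaling and 8 in the blocked fit of numbers 1 and 2. The count of 4 factors that differed by replicate number ran from 0 to 5 with 1 library left out. The cause of these changes was not tested; leaving out libraries or genes also changes the number tested.

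Signs turned for 3 factors, none of them called. Spi1 was 0.036 with median-ratio scaling, with and without the block. Bcl6 was -0.17, -0.07 and -0.16 without FSS replicate 1, FSS replicate 2 and static replicate 3, in a range of -0.17 to 0.37 with 1 library left out. Zeb2 was 0.14 with that scaling, with and without the block, 0.040 with equal totals, 0.35, 0.11 and 0.03 without FSS replicate 3, static replicate 1 and static replicate 2 (range -0.27 to 0.35), and 0.16 with numbers 1 and 2 alone, with and without the block. With 1 library left out, Id2 ran from -0.43 to -0.12, Spi1 from -0.18 to -0.06 and Nfil3 from 0.08 to 0.23, while Batf3 stayed within -0.35 to -0.30 and Runx3 within 0.23 to 0.32. Depth is unknown, so the precision of low genes cannot be judged.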
